A study of Drosophila melanogaster with 12 samples.

Results

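The canonical cytoplasmic ribosomal protein (RP) genes of *Drosophila melanogaster* were taken by symbol, as every gene named RpL or RpS followed by a digit together with *RpLP0*, *RpLP1*, *RpLP2* and *sta*, leaving out 10 alternative paralogs. This gave 82 of the 17737 genes in the RNA-immunoprecipitation sequencing (RIP-seq) table, 33 of the small and 49 of the large subunit, of which 80 had a count in at least 1 library. *RpL10Aa* and *RpS28-like* had 0 counts in all 6 libraries, where 3 counts would correspond to between 0.236 and 0.39 counts per 1000000 gene counts (CPM), and were not tested. Of the 82 genes, 78 are also listed among the 6555 genes of the RNA-seq table, and *RpL28*, *RpL32*, *RpL10Aa* and *RpS28-like* are not.

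The study asked which transcripts change in germ cells without Bag of marbles (Bam), the factor that starts differentiation of germline stem cell daughters, and which are bound by Bam. For RIP-seq, 3 immunoprecipitations with GFP-Trap beads from ovaries of the line Bam-fTRG-GFP, a fosmid transgene with GFP-tagged Bam, were set against 3 from Bam-Gal4 ::UASp-GFP ovaries, in which GFP alone is made where the *bam* driver is active. For RNA-seq, GFP-positive germ cells were sorted from 3 samples of vas-GFP; bam_delta86/bam_delta86 flies, whose *bam* locus is almost wholly deleted, and from 3 of vas-GFP flies. RIP RNA came from whole, unsorted ovaries pooled over flies, no input RNA was analysed here, and nothing says that equal replicate numbers mark a shared preparation. P-values therefore measure only the spread between these libraries, which may be technical. The fit estimates that spread for each gene partly from other genes. Without input RNA, a difference in binding and a difference in how much of a transcript the lysate held cannot be told apart, nor can fewer cells of a type and less RNA per cell.

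Ribosomal proteins surround the ribosomal RNA core of the small subunit, which reads the message, and of the large subunit, which joins amino acids. Their genes are among the most highly transcribed in growing cells and give short, abundant messenger RNAs whose translation responds together to growth signals. In the fly, loss of a single copy of many of these genes gives the *Minute* phenotype of slow development and thin bristles, and the ovary, which loads each egg with ribosomes, depends heavily on their supply.

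Counts on genes ranged from 7697440 to 12704088 per RIP library. Entries that the counting program set aside as aligned to several places made up 80.2 to 90.1% of gene counts plus such entries. This is not a share of reads, since the paper reports higher rates of unique mapping than it leaves. A read may be entered more than once. Below, these entries are called multiply aligned reads or reads aligned to several places. Whether reads of RP genes were among them was not tested. Summed CPM of 6 germline markers was 2640 to 4920 in Bam-GFP and 1810 to 2270 in GFP control libraries, with 2 of 6 called higher in Bam-GFP. These markers include *bam* itself, the tagged gene, of which the transgene adds copies. Summed CPM of 10 follicle cell markers was 8060 to 20600 in Bam-GFP and 3510 to 6680 in GFP control libraries, with 10 of 10 positive and 7 called higher. Of the markers of other tissues, 7 muscle sheath genes summed to 36.0 to 122 and 87.0 to 148 CPM, and 5 hemocyte and fat body genes to 3.95 to 22.2 and 2.81 to 12.5 CPM, with *NimC1* at 0. Germline and follicle cell marker sums thus lay apart between the groups, and their part in the RP values was not tested.

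The 80 counted RP genes took 2.51, 5.57 and 1.29% of gene counts in Bam-GFP libraries 1, 2 and 3, and 3.24, 5.75 and 2.01% in GFP control libraries 1, 2 and 3. Wilson 95% intervals, which cover counting error only, were narrow, the widest reaching from 5.56 to 5.59%. In both groups the share was highest in replicate 2 and lowest in replicate 3, and the groups overlapped, at 3.12 ± 2.2% (SD, n = 3) in Bam-GFP and 3.67 ± 1.91% (SD, n = 3) in GFP control. The spread within either group was thus larger than the distance between them. Both replicate 2 libraries were also the shallowest of their groups.

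**Figure D1:**
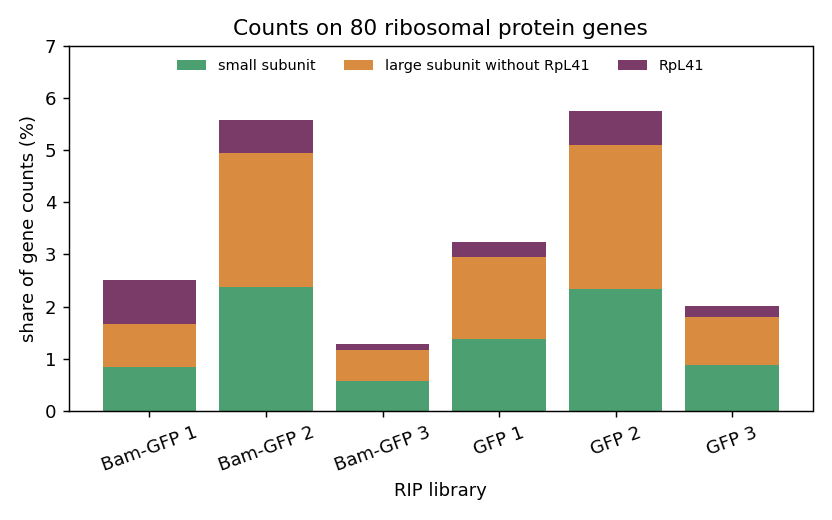
Stacked bars give the share of gene counts, in percent, on small subunit genes, large subunit genes without *RpL41*, and *RpL41* alone in each of the 6 RIP libraries. Shares reach 5.57 and 5.75% in the replicate 2 libraries, and the *RpL41* segment is tallest in Bam-GFP library 1.

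A single gene, *RpL41*, encoding a very small basic protein of the large subunit, accounted for 33.9% of the RP counts of Bam-GFP library 1, against 8.85 to 11.3% in the other 5 libraries. Without it the RP share was 1.66, 4.94 and 1.17% in Bam-GFP and 2.95, 5.10 and 1.79% in GFP control libraries, and the order of libraries within each group was kept. Small subunit genes made up 33.9 to 44.4% of RP counts with *RpL41* included. Among the remaining genes the subunits were nearly even, the small subunit taking 51.3, 48.1 and 49.2% in Bam-GFP and 46.9, 45.7 and 48.9% in GFP control. These shares overlapped between the groups.

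RP genes moved up and down together between libraries. Within Bam-GFP, 79 of 80 were highest in library 2, *RpL41* in library 1 being the exception, and 65 were lowest in library 3. Among GFP control libraries, 79 of 80 were also highest in library 2 and 74 lowest in library 3. The exception, *RpS13*, named here after its values were seen, measured 405, 555 and 560 CPM in GFP control and 399, 558 and 139 CPM in Bam-GFP.

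Replicate spread was correspondingly wide. The SD of log2 CPM between libraries had a median over RP genes of 1.079 in Bam-GFP and 0.77 in GFP control, against 0.389 and 0.295 for the 2245 genes with a mean of at least 100 CPM and at least 10 counts in every library. After each library was scaled to its RP genes, which removes what they share by construction, their median SD was 0.324 and 0.24. The relative levels of the 80 genes were alike in all libraries, with Pearson's r of log2 CPM between any pair of libraries from 0.789 to 0.974 across genes, which are not independent replicates.

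**Figure D2:**
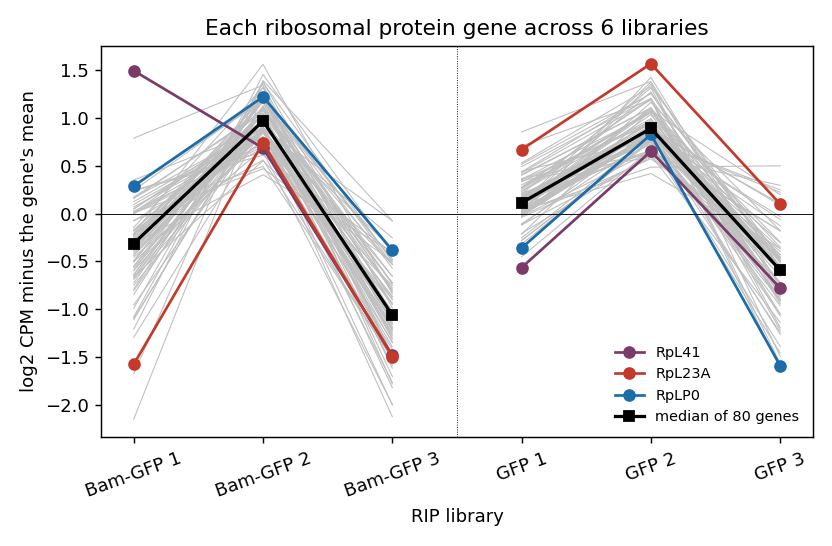
Lines give log2 CPM of each of 80 RP genes minus that gene's mean over 6 RIP libraries, with *RpL41*, *RpL23A* and *RpLP0* in colour and the median of the 80 genes in black. The median peaks at library 2 and is lowest at library 3 in both groups, while *RpL41* starts high in Bam-GFP library 1 and *RpL23A* low.

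Between Bam-GFP and GFP control, no RP gene was called higher and *RpL23A* alone was called lower by edgeR's quasi-likelihood test with Benjamini-Hochberg adjustment over 10971 genes. Of all genes tested, 1.72% were called higher and 0.474% lower, so that the called share of RP genes in the lower direction, 1.25%, rests on 1 gene. At an unadjusted p under 0.05, *RpLP0* alone was higher, with a background of 5.54%, and 12 RP genes were lower, which is 15.0% of the 80 beside a background of 4.03%. These counts come from a fit with the replicate number as a block, although the numbers were not shown to pair the libraries. Without the block 0 RP genes were called and 1 was lower at an unadjusted p under 0.05. DESeq2's Wald test called 0 RP genes higher and 1 lower at the adjusted threshold. Its unadjusted threshold gave 2 RP genes higher, beside 6.71% of all genes. It gave 8 lower, fewer than the 12 above, beside 4.71% of all genes. CPM of all 80 RP genes overlapped between the groups, whereas 13.6% of all genes tested did not overlap.

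Most fitted differences were small and negative. The log2 fold change, Bam-GFP over GFP control, was negative for 69 of 80 RP genes (86.2%), beside 52.2% of all genes tested and 42.4% of the 2170 other genes at 100 CPM or more. Its median was -0.29 for the RP genes, -0.05 for all genes and 0.10 for those other abundant genes. Other scalings moved the median of all genes, to -0.26 with library size only and to 0.07 with totals that also took in multiply aligned reads, under which 21 RP genes were positive. Each gene's standard error was between 0.31 and 0.50, and 33 of the 80 genes lay within 1 standard error of 0. Because the genes moved together from library to library, their shared sign is not 80 separate observations.

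Single libraries moved that median. Comparing libraries of equal number, the median log2 ratio over RP genes was -0.48 for replicate 1, 0.02 for replicate 2 and -0.44 for replicate 3, with 63, 35 and 54 genes lower. Counts by replicate number were not made over all genes. With the block kept, leaving out replicate 1, 2 or 3 gave fitted medians of -0.20, -0.51 and -0.20, all negative. Without the block the median was -0.18, and single libraries were left out from that fit. Leaving out GFP control libraries 1 and 3 gave -0.26 and -0.46, and leaving out Bam-GFP library 1 gave -0.01. Omitting Bam-GFP library 2 gave -0.92 with 20 genes called lower, beside 1.41% of all genes in that fit, whereas omitting Bam-GFP library 3 gave 0.15. Omitting GFP control library 2 gave 0.29, with *RpLP0* and *RpLP1* called higher beside a background of 1.32% and 0 RP genes called lower beside 0.437%.

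**Figure D3:**
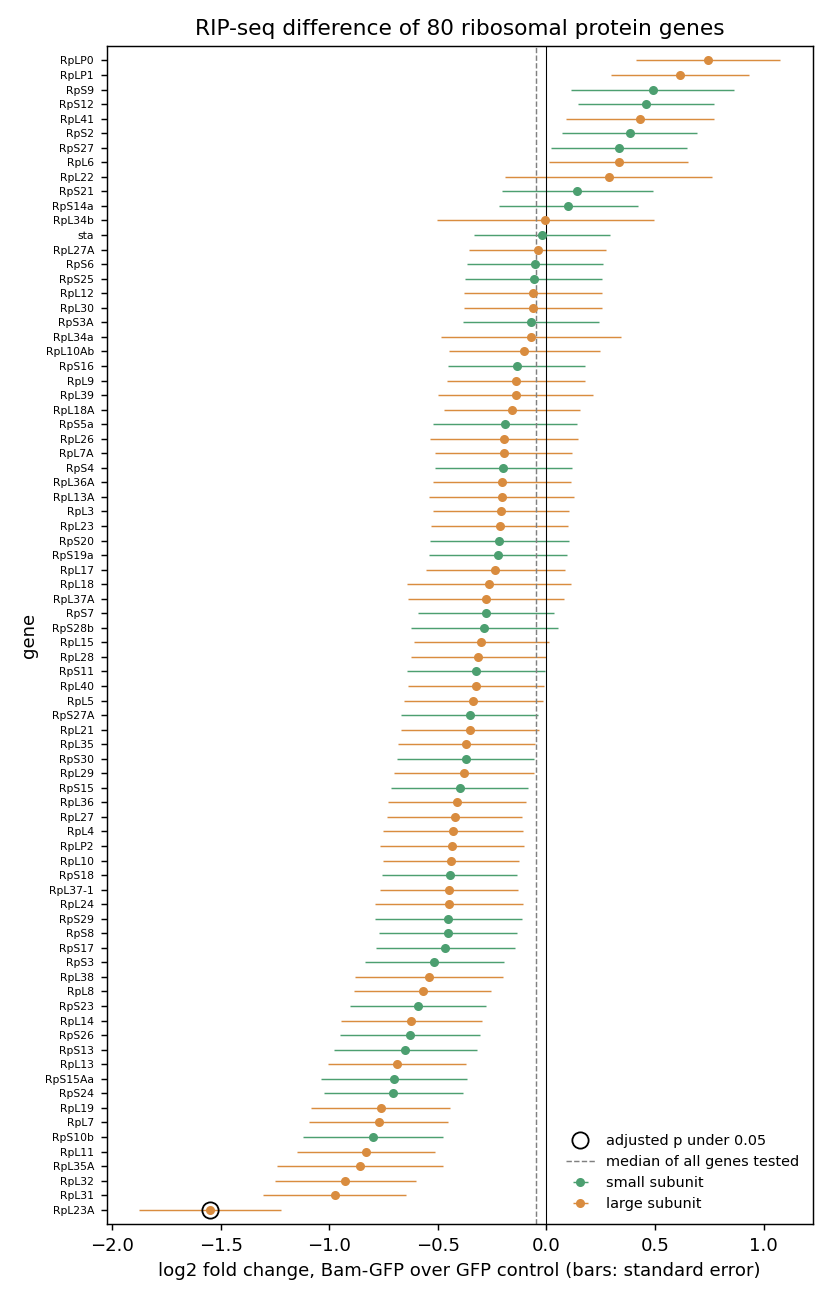
Points give the log2 fold change of 80 RP genes, Bam-GFP over GFP control, with bars of 1 standard error, ordered by size and coloured by subunit, and the dashed line marks the median of all genes tested. Of the 80 points, 69 lie below 0, and *RpL23A*, ringed, is the only one with an adjusted p under 0.05.

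**Figure D4:**
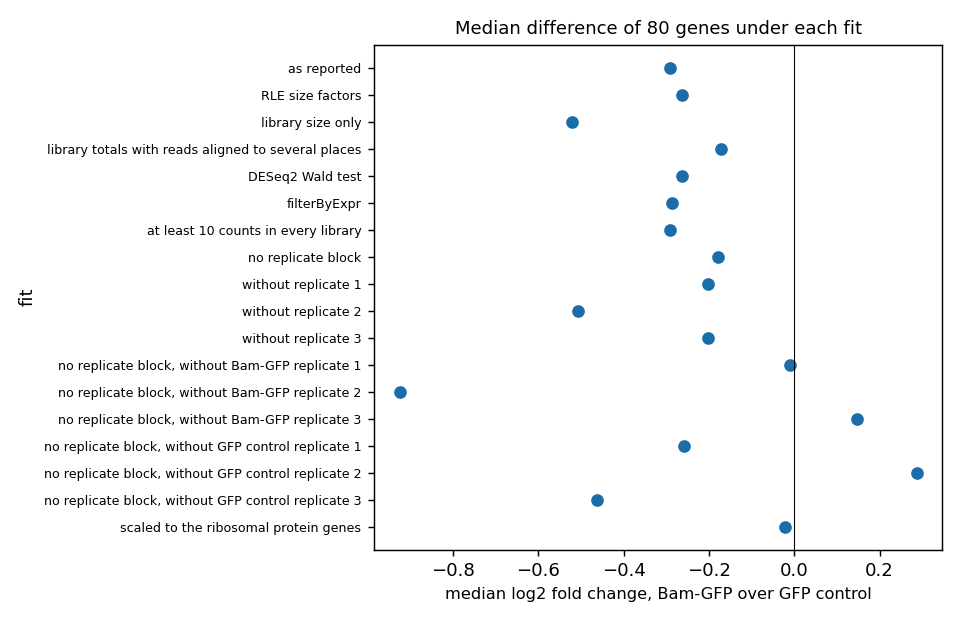
Points give the median log2 fold change of 80 RP genes under each normalization, test, filter and set of libraries, the last scaling having been added after the data were seen. The values run from -0.92 without Bam-GFP library 2 to 0.29 without GFP control library 2, both from fits that also lack the block, whose median is -0.18 with all libraries.

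Among large subunit genes, *RpL23A* had the strongest difference. It encodes a protein at the mouth of the exit tunnel, where the signal recognition particle docks on the emerging chain. In Bam-GFP libraries 1, 2 and 3, *RpL23A* measured 67.6, 335 and 71.5 CPM, and in GFP control libraries 319, 593 and 215 CPM. Bam-GFP libraries 1 and 3 lay below every control, whereas Bam-GFP library 2 lay above the lowest pair of controls, and the gene was lower in Bam-GFP for each of the 3 replicate numbers. Its group means were 158 ± 153 and 376 ± 195 CPM (SD, n = 3), and its log2 fold change was -1.55 (SE 0.33, adjusted p = 4e-04 by edgeR's quasi-likelihood test).

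With all libraries kept, the *RpL23A* call was not made without the replicate block. Without the block its log2 fold change was -1.25 (adjusted p = 0.081 by edgeR), and 0.665% of all genes were called lower in that fit. In fits that lacked the block and also 1 library, the adjusted p was 0.322 without Bam-GFP library 1, 0.356 without Bam-GFP library 3, 0.0846 without GFP control library 1 and 0.558 without GFP control library 2, and with the block it was 0.0804 without both libraries of replicate 1. The call was made without the block and Bam-GFP library 2 (log2 fold change -2.43, adjusted p = 5.4e-08 by edgeR). It was also made without the block and GFP control library 3 (log2 fold change -1.53, adjusted p = 0.0121 by edgeR). The log2 fold change of *RpL23A* remained negative in all 17 alternatives, between -2.43 and -0.76. The gene lies on chromosome 3L at 1666288 to 1668654 of the Release 6 assembly, holds 4 annotated small nucleolar RNAs and overlaps *CG7974* and the noncoding *Uhg7*. No use of strand in counting is stated for RIP-seq, and reads counted as ambiguous between genes were left out. Whether these overlaps added reads to *RpL23A* or took reads from it was not tested.

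Next lowest were *RpL31*, another protein of the exit tunnel's rim, and *RpL32*, whose transcript is a common reference in fly RT-PCR. *RpL31* measured 332, 712 and 90.2 CPM in Bam-GFP and 461, 822 and 449 CPM in GFP control. *RpL32* measured 92.6, 392 and 48.6 CPM in Bam-GFP and 240, 416 and 120 CPM in GFP control. For both genes Bam-GFP library 3 was the lowest of all 6 and Bam-GFP library 2 overlapped the controls. The log2 fold changes were -0.98 (SE 0.33, adjusted p = 0.0941) and -0.93 (SE 0.32, adjusted p = 0.124) by edgeR, and neither passed the threshold. Both were called with library size only (adjusted p = 0.0112 and 0.0356 by edgeR) and in the fit that lacked both the block and Bam-GFP library 2 (0.0043 and 5.75e-05). *RpL31* overlaps the gene *clos*.

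With *RpL23A*, *RpL31* and *RpL32*, the 12 genes lower at an unadjusted p under 0.05 comprised 8 of the 48 large subunit genes and 4 of the 32 small subunit genes. The further large subunit genes were *RpL35A* at -0.86, *RpL11*, a partner of 5S ribosomal RNA, at -0.83, *RpL7* at -0.77, *RpL19* at -0.76 and *RpL13* at -0.69 on the log2 scale. The small subunit genes were *RpS10b* at -0.80, *RpS24* and *RpS15Aa* both at -0.70, and *RpS13* at -0.65. None of these 9 genes passed at the adjusted threshold, their adjusted p by edgeR lying between 0.198 and 0.506.

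The stalk of the large subunit, which recruits the elongation factors that use GTP, is built on RpLP0 and carries RpLP1 and RpLP2 dimers. *RpLP0* measured 156, 298 and 98.2 CPM in Bam-GFP and 99.8, 227 and 42.7 CPM in GFP control. *RpLP1* measured 479, 703 and 121 CPM in Bam-GFP and 229, 466 and 106 CPM in GFP control. Both were higher in Bam-GFP for every replicate number, although the groups overlapped. Their log2 fold changes, 0.74 (SE 0.33, adjusted p = 0.362 by edgeR) and 0.61 (SE 0.32, adjusted p = 0.534 by edgeR), were the 2 highest of the 80 genes and did not pass the threshold.

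The third stalk gene, *RpLP2*, did not share this profile. It measured 437, 727 and 115 CPM in Bam-GFP and 321, 663 and 455 CPM in GFP control. Bam-GFP library 3 was far below the rest, while Bam-GFP libraries 1 and 2 were each above the control of the same number. The fitted log2 fold change was -0.43 (SE 0.33, adjusted p = 0.855 by edgeR). Whether *RpLP2* differed from the other stalk genes was not tested.

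**Figure D5:**
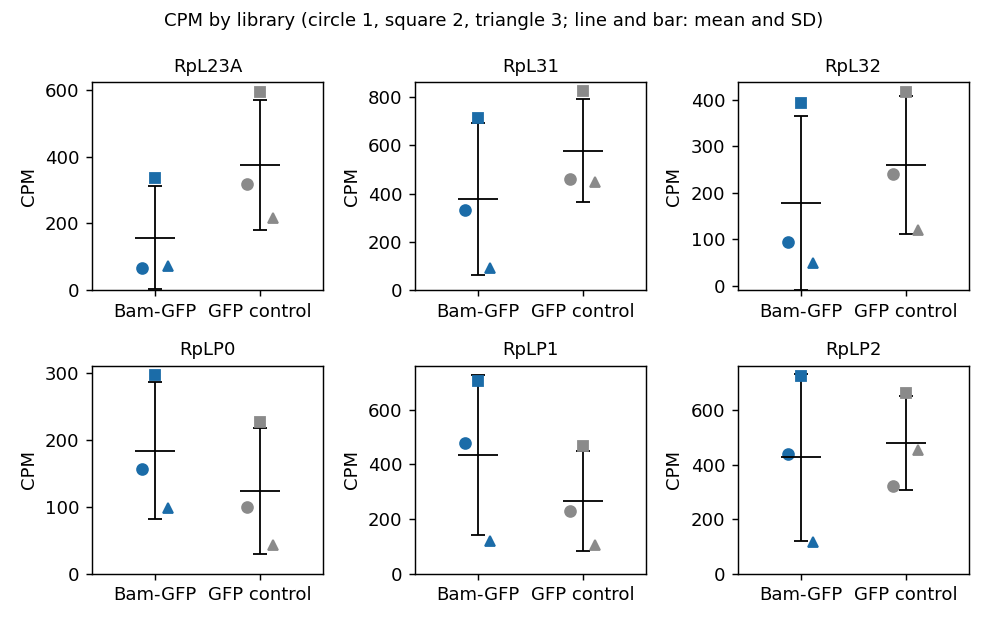
Symbols give CPM in each RIP library for 3 large subunit genes (top) and 3 stalk genes (bottom), circles for replicate 1, squares for replicate 2 and triangles for replicate 3, with horizontal lines and bars for the mean and SD of 3 libraries. The replicate 2 library is the highest of its group in every panel, and the groups overlap in all 6.

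Of the 32 small subunit genes, 6 had a positive value, the median log2 fold change was -0.28 and 0 were called in either direction at the adjusted threshold. *RpS9*, whose protein lines the channel where messenger RNA enters, was the third highest of the 80 genes. It measured 93.3, 172 and 45.7 CPM in Bam-GFP and 65.9, 116 and 34.7 CPM in GFP control. Each Bam-GFP library was above the control of the same number, though the groups overlapped (log2 fold change 0.49, SE 0.37, adjusted p = 0.855 by edgeR). *RpS9* overlaps an antisense RNA, asRNA:CR45874, and whether this overlap added or took reads was not tested.

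*RpS9*, *RpLP0* and *RpLP1* were among 6 genes higher in Bam-GFP for all 3 replicate numbers, the others being *RpS2*, *RpS12* and *RpS27*, and 22 genes were lower for all 3. The same counts were not made over all genes, so whether 6 or 22 is unusual was not tested. *RpS12*, a sensor in the competition of fly cells that lack an RP gene copy, had a log2 fold change of 0.46 and *RpS2* one of 0.38, both outside the rule for named genes and both past neither threshold. *RpS27*, also named after its values were seen, starts 845 bases beyond the end of *bam*, at 25245955 to 25247514 on 3R. It measured 582, 1981 and 377 CPM in Bam-GFP and 540, 1154 and 347 CPM in GFP control. The groups overlapped (log2 fold change 0.34, SE 0.31, adjusted p = 0.895 by edgeR). Whether the fosmid transgene, which adds copies of the *bam* region, also holds *RpS27* is not given in the sources used here.

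*sta*, the fly gene for ribosomal protein SA, and *RpS6*, the substrate of S6 kinase whose loss gives blood tumours in flies, lay close to 0. *sta* measured 233, 824 and 245 CPM in Bam-GFP and 313, 768 and 205 CPM in GFP control, a log2 fold change of -0.02 (SE 0.31). *RpS6* measured 356, 690 and 171 CPM in Bam-GFP and 329, 608 and 235 CPM in GFP control, a log2 fold change of -0.05 (SE 0.31). In both genes the highest and the lowest libraries of the groups interleaved, and with a like standard error the larger value of *RpLP1* did not pass the threshold.

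*RpS5a* and *RpS19a* have paralogs, *RpS5b* and *RpS19b*, known for expression in the germline. *RpS5a* measured 91.1, 246 and 95.2 CPM in Bam-GFP and 137, 254 and 90.6 CPM in GFP control. *RpS19a* measured 151, 353 and 105 CPM in Bam-GFP and 245, 395 and 91.4 CPM in GFP control. Both overlapped throughout, at log2 fold changes of -0.19 (SE 0.33) and -0.22 (SE 0.32). *RpS5b* measured 66.9, 233 and 84.4 CPM in Bam-GFP and 167, 253 and 49.2 CPM in GFP control, while *RpS19b* did not exceed 0.742 CPM in any library.

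*RpS27A* and *RpL40* each encode ubiquitin fused to a ribosomal protein, the fusion being cut after translation. *RpS27A* measured 187, 679 and 144 CPM in Bam-GFP and 321, 609 and 195 CPM in GFP control. *RpL40* measured 248, 639 and 164 CPM in Bam-GFP and 346, 624 and 237 CPM in GFP control. The fusions had similar profiles, below their controls in replicates 1 and 3 and slightly above in replicate 2. Their log2 fold changes were -0.35 (SE 0.32) and -0.33 (SE 0.31), with an adjusted p of 0.895 for each by edgeR. In the fit that lacked both the block and Bam-GFP library 2, *RpS27A* was called lower (-1.18, adjusted p = 0.0279 by edgeR).

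Levels between genes were compared as mean CPM per kilobase of the gene's annotated span, introns included. *RpL41* stood first at 9126, against a median of 233 over the 80 genes and 813 for *RpS3A* and 750.5 for *RpLP2* next in order. By library, *RpL41* measured 10518, 6012 and 1344 CPM in Bam-GFP and 2534, 5876 and 2187 CPM in GFP control. Bam-GFP libraries held both its highest and its lowest value (log2 fold change 0.43, SE 0.34, adjusted p = 0.867 by edgeR). The gene overlaps *NaCP60E*, and a short span raises its value on this scale.

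*RpS3A*, the only RP gene on chromosome 4, was the steadiest of the named genes, with 1474, 2143 and 1096 CPM in Bam-GFP and 1506, 2303 and 1154 CPM in GFP control. Each Bam-GFP library was slightly below the control of its number, and the log2 fold change was -0.07 (SE 0.31). *RpL22*, whose fly protein carries a histone-like extension, was lowest at 15.8 CPM per kilobase, followed by *RpS5a* at 32.6 and *RpL34b* at 42.2. *RpL22* measured 43.2, 55.9 and 27.6 CPM in Bam-GFP and 36.9, 63.9 and 15.5 CPM in GFP control, and *RpL34b* 19.8, 75.8 and 23.5 CPM and 35.4, 84.6 and 11.7 CPM. Both overlapped, at 0.29 (SE 0.48) and -0.01 (SE 0.50) on the log2 scale, and their standard errors were the widest among the named genes.

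In sorted germ cells, the authors' mean normalized count over all 6 RNA-seq libraries ran from 25671 for *RpL34a* to 230780 for *sta* across the 78 listed RP genes. The median RP gene was at 112309, beside 1357 for all listed genes, and 71 RP genes were among the 100 highest. RP genes made up 1.19% of listed genes and 22.3% of their summed mean. In the RIP libraries, ranked by count over all genes, 0 to 10 of them were among the 100 most counted. The ranks cover unlike sets of genes and unlike material, and are not a comparison of sorted cells with RIP. Across the 78 genes, this mean and the mean RIP CPM had a Spearman correlation of 0.572, a description in which both measures share gene length. Genotypes are not compared here for RP genes, since the table gives no values of single libraries and the authors' own comparison was not used, and inclusion in the list was itself set by the authors' comparison.

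The 80 counted genes were spread over the genome, with 17 each on 2L, 2R and 3R, 14 each on 3L and X and 1 on 4. Their spans ran from 520 to 4677 bases with a median of 1403.5. Of 269 annotated small nucleolar RNAs (snoRNAs), which guide the modification of ribosomal RNA, 76 lay within 29 RP genes, *RpS5a* holding 14. The median log2 fold change was -0.21 for these 29 hosts, 26 of them negative, and -0.37 for the 51 others, 43 of them negative. For the 51 genes overlapped by no other gene the median was -0.33, with 44 negative. Neither span nor mean CPM followed the log2 fold change across the 80 genes, with Spearman correlations of -0.00912 and -0.117.

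Among other genes of the translation machinery, 10 elongation factors and partners had a median log2 fold change of -0.35, 3 of 10 positive. By edgeR 0 of the 10 were called at the adjusted threshold. At an unadjusted p under 0.05, 3 of the 10 were lower, beside 4.03% of all genes. *Tctp*, an abundant growth-related protein, was at -0.92, the helicase gene *eIF4A* at -0.90 and the elongation factor gene *eEF1beta* at -0.68. Of 10 genes for ribosome assembly, 5 were positive with a median of 0.01, and 0 passed either threshold. Of 72 tested genes for mitochondrial ribosomal proteins, 29 were positive, the median was -0.15 and 0 were called. At an unadjusted p under 0.05, 1 of the 72 was higher, beside 5.54% of all genes.

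The 7 tested alternative paralogs, with 3 more at 0 counts, had a median of -0.51, 2 positive values and 0 calls at either threshold. *RpL22-like*, *RpL37-2* and *RpS19b* among them were below 1 CPM in every library. Of 4 transcription factors tied to RP gene expression in flies, 0 were called at the adjusted threshold. *Trf2* at 0.77 and *Myc* at 0.72 were higher at an unadjusted p under 0.05, beside 5.54% of all genes. The others were negative, *M1BP* at -0.64 (SE 0.60) and *Dref* at -0.07 (SE 0.37). *M1BP* alone did not overlap between the groups, lying lower in Bam-GFP, beside 13.6% of all genes without overlap. Counts of *Trf2* and *Myc*, unlike those of the RP genes, were lowest in replicate 2 of both groups, *Trf2* measuring 1168, 555 and 759 CPM in Bam-GFP and 547, 268 and 683 CPM in GFP control.

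Scaling each library to its RP genes, a choice made after the data were seen, shows which RP genes were over- or under-represented among the others. The scaling is built from these genes and narrows their spread by construction. It also puts their shared swings onto all other genes, so shares of RP genes and of all genes under it are not like measures. Under it, 6 of 80 genes (7.5%) lay higher in Bam-GFP with no overlap between groups and 8 (10%) lay lower, beside 2.71% and 2.1% of all genes tested treated the same way. The higher genes were *RpLP0*, 2.03-fold, *RpS9*, 1.69-fold, *RpS12*, 1.66-fold, *RpS2*, 1.57-fold, *RpS27*, 1.52-fold, and *RpS6*, 1.16-fold. Of these, 5 belong to the small subunit, and *RpLP0* is the base of the large subunit's stalk. The lower genes were led by *RpL23A*, 2.43-fold, *RpL31*, 1.65-fold, *RpL11*, 1.47-fold, and *RpL19*, 1.41-fold. They were followed by *RpS24*, 1.35-fold, *RpL13*, 1.33-fold, *RpS23*, 1.25-fold, and *RpS30*, only 1.07-fold. An edgeR fit with this scaling called 0 RP genes at the adjusted threshold, and at an unadjusted p under 0.05 it found 2 higher and 1 lower.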

How the data were processed

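RP genes and related lists were chosen with earlier results of these data known. Per the labels, the authors aligned reads (paired-end and unstranded in RNA-seq, single-end in RIP-seq, whose strandedness is not given in the sources used here) with STAR 2.4.0 to the *Drosophila* Release 6 genome and counted them per gene with HTSeq 0.11.0. The deposited RIP-seq values are raw counts, beside a fold change and a p-value of the authors' paired test, which were not used. Lines of the counting program that name no gene were left out. Per library they held 108696 to 358718 reads outside genes and 385652 to 605124 ambiguous ones. They also held 51532206 to 85497154 entries aligned to several places, among which a read may recur. From the deposited RNA-seq table, only the authors' mean normalized signal from DESeq2 1.14.0 was used; its log2 fold changes, their errors, Wald scores and p-values were not. It holds no values of single libraries, so the planned RNA-seq fit was not made.

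Genes without a single RIP count were dropped, and counts of the other 10971 were scaled with TMM (factors 0.807 to 1.13) and fitted with edgeR 4.0.16 (robust quasi-likelihood, replicate number as a block after the study's paired test) in R 4.3.3, with Benjamini-Hochberg adjustment at 0.05. CPM use TMM factors, shares do not. Standard errors were derived from F. The fit was tested on simulated data in which genes varied independently and replicate numbers had no effect. That test therefore does not cover the swings that RP genes shared between libraries. Columns of the RIP table were assigned to their group by name, and replicate numbers are those in the column names. These numbers were not shown to pair the libraries. Deviations of equal-numbered libraries from their group means correlated at -0.153, 0.231 and -0.0509 over 6335 genes. Over the RP genes they correlated at -0.49, 0.197 and -0.464. Such correlations across RP genes leave out a shift that these genes share, so they cannot settle the pairing. Most RP genes were highest in replicate 2 and lowest in replicate 3 of both groups. Symbols, positions and snoRNAs came from a RefSeq table of the same assembly, matching 17599 identifiers. Named genes were those called, the 3 highest and 3 lowest log2 fold changes where every library held 10 counts or more, the 3 highest and 3 lowest CPM per kilobase, and *RpLP0*, *RpLP1*, *RpLP2*, *sta*, *RpS27A*, *RpL40*, *RpS6*, *RpL22*, *RpS19a* and *RpS5a*. The fit was repeated with RLE factors, with no factors, with totals that took in multiply aligned reads, with DESeq2 1.42.0, under stricter count filters, without the block, with replicate numbers or libraries omitted in turn, and, chosen after seeing the data, scaled to the RP genes.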

Additional observations from a re-analysis of the deposited data

How the results depend on the processing

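Log2 fold changes of *RpL23A*, *RpL31*, *RpL32*, *RpLP0* and *RpLP1* kept their sign in all 17 alternatives, but calls, counts and other signs varied, and single libraries moved them most. These genes hold the 3 lowest and 2 highest values of the same data, so a kept sign is not separate support. Their values nearest 0 were -0.758, -0.145, -0.02, 0.047 and 0.167, in that order. Over the 3 replicate numbers and, without the block, the 6 libraries left out in turn, RP genes called lower ranged from 0 to 20 and higher from 0 to 2. At an unadjusted p under 0.05, lower genes ranged from 1 to 59 and higher genes from 0 to 8, the extremes being 73.8% of RP genes beside 6.48% of all genes without the block and Bam-GFP library 2, and 10% beside 5.55% without the block and GFP control library 2. Positive genes ranged from 3 to 67, and the median log2 fold change from -0.924 to 0.287. Called lower were 3 genes with library size only, 0 without the replicate block and 0 with scaling to RP genes. At an unadjusted p, library size only gave 30 lower and 0 higher (all genes 6.97% and 3.35%), no replicate block 1 and 0 (5.16% and 7.2%), scaling to RP genes 1 and 2 (1.41% and 7.87%), totals with reads aligned to several places 3 lower (1.93%), and RLE factors and DESeq2 2 higher each (5.8% and 6.71%). Positive genes numbered 21 with those totals, 20 without the replicate block and 36 with scaling to RP genes. With those totals as denominator, which lowers every share, the difference in RP share was -0.009 percentage points, beside -0.543, and the ratio of mean shares was 0.976, beside 0.852. Those totals may hold a read more than once and are not numbers of reads. The median of RP genes minus that of all genes was -0.243 in the reported fit and -0.242 with RLE factors. It was -0.257 with library size only, -0.243 with those totals and -0.238 with scaling to RP genes. Without the block it was -0.156, and with libraries left out it ran from -0.763 to 0.233. The cause of the changes between fits was not tested.

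Signs turned for 12 of the 17 named genes, larger values such as *RpS9*, *RpL41* and *RpLP2* included. With RLE factors and with DESeq2, *RpL34b* was at 0.023 and *sta* at 0.007. With totals including reads aligned to several places, *RpL34b* and *sta* were at 0.099, *RpS3A* at 0.053 and *RpS6* at 0.071. Without the replicate block, *RpS6* was at 0.055 and *sta* at 0.017. With scaling to RP genes, *RpL34b* was at 0.255, *RpS19a* at 0.046, *RpS3A* at 0.202, *RpS5a* at 0.08, *RpS6* at 0.219 and *sta* at 0.249. When libraries were left out, the lowest and highest values were -0.251 and 0.688 for *RpL22*, -1.016 and 0.752 for *RpL34b*, -0.966 and 0.265 for *RpL40*, -0.335 and 1.336 for *RpL41*, -0.922 and 0.289 for *RpLP2*, -0.932 and 0.268 for *RpS19a*, -1.178 and 0.383 for *RpS27A*, -0.365 and 0.24 for *RpS3A*, -0.787 and 0.338 for *RpS5a*, -0.566 and 0.526 for *RpS6*, -0.057 and 1.04 for *RpS9*, and -0.842 and 0.744 for *sta*.

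For Bam-GFP library 2 alone the deviations correlated best with the control of its own number. The initiator motif at RP promoters was not examined. Standard errors near 0.3 on the log2 scale went with these values, while the lowest count of an RP gene in any library was 109.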
